A study of Mus musculus with 2 samples.

Results

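Lin28a, Lin28b and 8 genes that make, load or act beside microRNAs were followed in mouse embryonic stem (ES) cells carrying a T29I mutation and in wild-type ES cells. The 10 genes are Lin28a, Lin28b, Trim71, Dis3l2, Drosha, Dgcr8, Dicer1, Tarbp2, Ago1 and Ago2. They were chosen by symbol, and all 10 of 10 symbols were found among the 51826 genes of the deposited table. The wild-type (WT) group was 1 library and the T29I group was 1 library. The source label of both groups is the v6.5 mouse ES line, both carry the strain label NBA1-19349, which does not name that line, and the series title gives PRSS1 as the mutated gene. No treatment, time, clone number or passage is given in the sources used here, so whether the mutant line came from 1 clone is not known. Total RNA was depleted of ribosomal RNA and made into stranded libraries. The values are TPM, transcripts-per-million, a read density per length of gene with a fixed total per library. A comparison between different genes depends on the length taken for each of them.

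MicroRNAs are short RNAs that lower the stability and translation of messages carrying matches to their seed, bases 2 to 8. In the nucleus the Microprocessor, made of the nuclease Drosha and its RNA-binding partner Dgcr8, cuts a hairpin out of a long primary transcript. Dicer1, helped by the double-stranded RNA-binding protein Tarbp2, cuts that hairpin in the cytoplasm to a duplex, and a strand of it is held by an Argonaute protein such as Ago1 or Ago2. Lin28a and Lin28b bind let-7 precursors and block their maturation. A precursor bound by Lin28a is tailed with uridines, and the exonuclease Dis3l2 degrades it. Trim71, also called Lin41, is an RNA-binding TRIM-NHL protein of early embryos whose message is a classical let-7 target.

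The sequences at the centre of this circuit are shown with the part that matters in capitals. RefSeq (GRCm38.p6) gave 8 mature let-7 sequences from the 5' arm, and all 8 share the seed GAGGUAG. The seed AAGUGCU belongs to microRNAs abundant in ES cells and was found in 5 of 11 mature 3' arm sequences of the miR-290 to miR-295 and miR-302 clusters. Seeds are in capitals in these 4.
let-7a-5p: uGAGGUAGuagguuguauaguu
let-7g-5p: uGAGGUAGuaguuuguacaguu
miR-294-3p: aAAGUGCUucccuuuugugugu
miR-302b-3p: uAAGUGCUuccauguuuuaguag

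The zinc knuckles of Lin28 proteins are known to recognise GGAG in let-7 precursors. The letters GGAG, read on the RNA strand only, occurred in 9 of 11 let-7 hairpins, against 44.5% of 1005 mouse hairpins in the same table. The 2 let-7 hairpins without these letters were Mirlet7b and Mirlet7c-2. A hairpin with GGAG in capitals, at chr9:106178840-106178927 on the + strand, and a hairpin without it, at chr15:85707319-85707403 on the + strand, show the difference.
Mirlet7g: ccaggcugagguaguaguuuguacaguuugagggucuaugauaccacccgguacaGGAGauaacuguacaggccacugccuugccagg
Mirlet7b: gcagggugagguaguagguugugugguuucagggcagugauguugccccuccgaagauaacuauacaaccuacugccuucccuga

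Several of the 10 genes carry matches to the let-7 seed in their own messages. The motif CTACCTC, the complement of the let-7 seed, was searched on the message strand of annotated 3' untranslated regions (GENCODE M21, GRCm38, longest coding transcript). It was present in 5 of the 10 genes, with 4 matches in Trim71, 4 in Lin28b, 3 in Ago2, 2 in Lin28a and 1 in Tarbp2. Of all 21037 annotated regions 8.83% held it. Longer regions hold it more often, and among regions within 20% of the gene's own length the share was 29.5% for Trim71, 24.0% for Lin28b, 45.9% for Ago2, 14.4% for Lin28a and 2.70% for Tarbp2. The motif AGCACTT, the complement of the miR-294 seed, was present once each in Lin28b and Trim71, against 14.4% of all regions, 41.1% of those of like length to Lin28b and 50.3% of those of like length to Trim71. A match is a description of letters and not a measured site. The matches below are in capitals, and the 2 printed for Trim71 start at bases 3591 and 3617 of its 3' untranslated region.
Lin28a, chr4:134005186-134005211, - strand: gcacagcctgttgaaCTACCTCattt
Lin28a, chr4:134004548-134004573, - strand: gagatcgccacaaacCTACCTCactg
Lin28b, chr10:45381019-45381044, - strand: acccgggcgggaagtCTACCTCatgc
Trim71, chr9:114509044-114509069, - strand: tttagtatggattttCTACCTCaatt
Trim71, chr9:114509018-114509043, - strand: ttggcaaaaagttgtCTACCTCacgt
Ago2, chr15:73101721-73101746, - strand: acagatgcataaaagCTACCTCtgac
Tarbp2, chr15:102523429-102523454, + strand: ccagaggtgccatctCTACCTCtgac

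The table lists microRNA hairpins as rows of their own, and all 11 let-7 rows were at 0 in both libraries. These libraries therefore give RNA levels of the genes that encode the machinery and not levels of the microRNAs it makes. Protein was not measured in them.

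Estimated depth was 16909672 reads in WT cells and 15281248 in T29I cells. Most genes were lower in T29I cells. Over the 9375 genes whose mean TPM reached 5, the log2 ratio (T29I over WT, from TPM + 1) had a median of -0.90, a level 1.86-fold lower. A ratio with this median subtracted is called shift-corrected below. The ES cell factors Pou5f1, Sox2 and Nanog summed to 3050 TPM in WT cells and 1949 TPM in T29I cells, and none of the 3 was near 0, with Nanog at 765 and 140 TPM. Of 7 markers of feeder fibroblasts 0 reached 1 TPM in WT cells and 1, Col1a1, in T29I cells; Lum was at 0 in both, and the list summed to 2.59 and 2.08 TPM. The 6 trophoblast markers summed to 48.1 and 906 TPM, nearly all of it from Krt8 at 28.6 and 389 TPM, Krt18 at 15.4 and 353, Krt19 at 2.91 and 84.1 and Hand1 at 0.868 and 79.5. Cdx2 and Elf5 were near 0 in both libraries, on 3 and 6 estimated reads for Cdx2 and 3 and 4 for Elf5. The 4 primitive endoderm markers summed to 7.52 and 1.35 TPM, a difference carried by Sox7 at 6.02 and 0.184 TPM; Gata6, Gata4 and Sox17 were each under 1 TPM in both, and Gata4 and Sox17 had the higher TPM in T29I cells. The part of these shifts in the results below was not tested, and fewer cells of a type and less RNA per cell cannot be told apart in bulk RNA. Prss1 was listed at 0 in both libraries, so its level checks neither label. With 1 library per group there is no spread between replicates and no test, and the intervals given are 95% exact counting intervals that cover counting error only.

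In T29I cells 9 of the 10 genes had a TPM below that of WT cells, and 1, Tarbp2, a TPM above it. Most genes with a mean TPM of 1 or more were also lower there, with a median log2 ratio of -0.84 as deposited. Their exact share was not counted. Their summed level was 669 TPM in WT cells and 263 TPM in T29I cells. All 10 passed the filter, a mean TPM of 1 or more. By shift-corrected ratio, 6 were lower by 2-fold or more (Ago2, Ago1, Lin28b, Trim71, Dicer1 and Drosha), 1 was higher by 2-fold or more (Tarbp2) and 3 were neither (Lin28a, Dgcr8 and Dis3l2). Of the 12943 genes that passed it, 22.2% were lower and 26.0% higher by this rule. The median of the 10 genes was -1.26, and that of all these genes 0.055. As deposited, with no shift subtracted, 8 of the 10 were lower and 0 higher by 2-fold or more, where the background was 45.7% and 9.97%. After rescaling without the 20 most abundant genes of each library the counts were again 8 and 0, with a background of 42.5% and 12.8%.

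**Figure D1:**
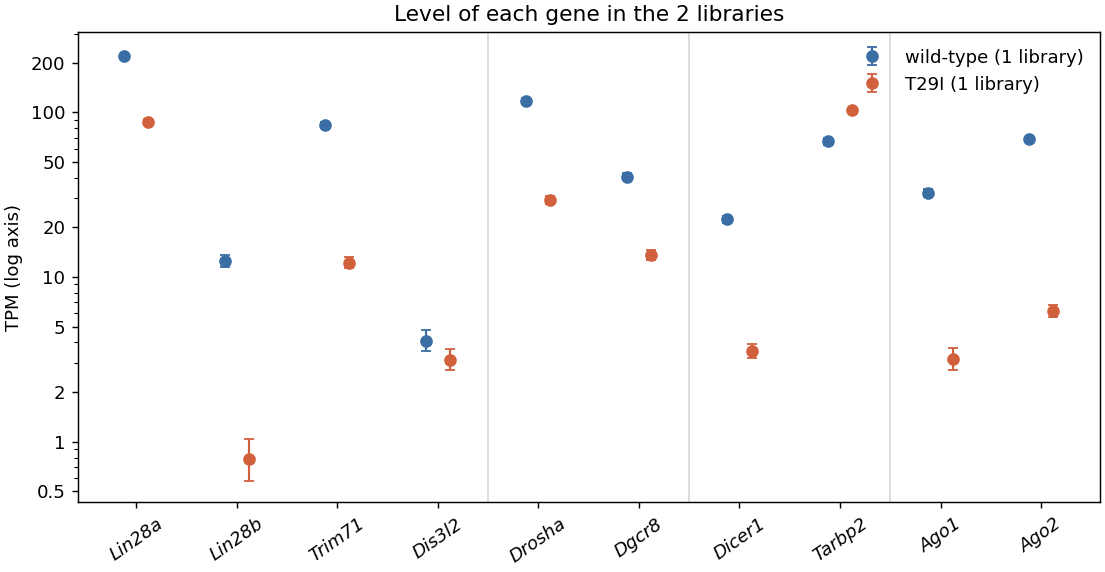
TPM on a log axis for each of the 10 genes in WT cells (blue) and T29I cells (orange), with 95% exact counting intervals; grey lines separate the let-7 regulators, the Microprocessor, the Dicer pair and the Argonautes. Lin28b has the widest gap, from 12.5 to 0.785 TPM, and Tarbp2 alone is higher in T29I cells.

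Lin28a and Lin28b, the repressors of let-7, were both lower in T29I cells and by different amounts. Lin28a (ENSMUSG00000050966, GRCm38 chromosome 4, 134003330 to 134018841, - strand) was at 221 TPM in WT cells (214 to 227) and 87.7 TPM in T29I cells (84.2 to 91.3), 2.51-fold lower. It was the most abundant of the 10 genes in WT cells and the second most abundant in T29I cells. Its log2 ratio was -1.32 as deposited and -0.43 after shift correction, the median gene being at -0.90.

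Lin28b (ENSMUSG00000063804, chromosome 10, 45376620 to 45486395, - strand), the paralog of Lin28a, was at 12.5 TPM (11.5 to 13.5) in WT cells and 0.785 TPM (0.577 to 1.04) in T29I cells. It was 15.9-fold lower, with a counting interval of 11.8 to 21.9, and rested on an estimated 587 and 47 reads. The fold of Lin28b was the widest among the 10 genes on the TPM scale. Its shift-corrected log2 ratio was -2.02. The balance of the paralogs differed between the libraries. Lin28a was 17.7 times as abundant as Lin28b in WT cells (16.2 to 19.3) and 112 times in T29I cells (83.7 to 153). Such a ratio does not depend on the scaling of the library, but it does carry any trend with transcript length and GC content. After adjustment for that trend, described below, the log2 ratios of Lin28a and Lin28b were -0.22 and -0.75, closer together than the shift-corrected -0.43 and -2.02. These log2 ratios come from TPM + 1, which understates the difference of a gene as low as Lin28b.

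Trim71 (ENSMUSG00000079259, chromosome 9, 114507133 to 114564369, - strand), which with 4 let-7 matches has 2 of them printed above, was at 84.1 TPM (81.6 to 86.7) in WT cells and 12.2 TPM (11.4 to 13.1) in T29I cells, 6.88-fold lower. Its shift-corrected log2 ratio was -1.79. Trim71 was 3.76 times as abundant as Dicer1, a gene of like transcript length, in WT cells (3.57 to 3.98) and 3.43 times in T29I cells (3.03 to 3.88), and these intervals overlap. The GC content differs, at 53.8% for Trim71 and 47.3% for Dicer1. After adjustment for length and GC content the log2 ratios were -0.51 for Trim71 and 0.36 for Dicer1. With merged exon length they were -1.26 and 0.31.

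Dis3l2 (ENSMUSG00000053333, chromosome 1, 86703808 to 87050095, + strand), the exonuclease that degrades tailed let-7 precursors, was the least abundant of the 10 genes in WT cells. It was at 4.10 TPM (3.55 to 4.74) there and at 3.15 TPM (2.71 to 3.63) in T29I cells. These counting intervals overlap, and the ratio of the levels was 1.30 (1.06 to 1.61). Its shift-corrected log2 ratio was 0.60. Lin28a was 53.7 times as abundant as Dis3l2 in WT cells (46.4 to 62.3) and 27.8 times in T29I cells (24.0 to 32.6). By the whole-read check described below, these TPM fit division by the merged length of all exons. That length is 8901 bases for Dis3l2 and 3996 for Lin28a, where the longest coding transcripts have 3154 and 3505. The ratio depends on this choice of length, which the counting intervals do not cover.

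The Microprocessor subunits were both lower, and not to the same extent. Drosha (ENSMUSG00000022191, chromosome 15, 12824815 to 12935291, + strand) was at 117 TPM (114 to 121) in WT cells and 29.3 TPM (27.7 to 31.1) in T29I cells, 4.0-fold lower. Dgcr8 (ENSMUSG00000022718, chromosome 16, 18253948 to 18289246, - strand) was at 40.6 TPM (38.6 to 42.6) in WT cells and 13.6 TPM (12.6 to 14.7) in T29I cells, 2.98-fold lower. Their shift-corrected log2 ratios were -1.07 and -0.62. Drosha was 2.89 times as abundant as Dgcr8 in WT cells (2.73 to 3.07) and 2.16 times in T29I cells (1.96 to 2.37), and these counting intervals do not overlap. The longest coding transcripts of Drosha and Dgcr8 are of like length, 4570 and 4320 bases. The exons of Dgcr8 overlap those of Trmt2a on the opposite strand by 825 bases, and Trmt2a was at 34.6 and 28.9 TPM. The strand setting of the counting is not stated in the labels, so reads of the 2 genes may have been exchanged.

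As TPM, Dicer1 was lower and its partner Tarbp2 higher in T29I cells. After adjustment for transcript length and GC content Dicer1 was no longer lower, and how far Tarbp2 was higher depended on the length used. Dicer1 (ENSMUSG00000041415, chromosome 12, 104687742 to 104751952, - strand) was at 22.3 TPM (21.4 to 23.4) in WT cells and 3.57 TPM (3.23 to 3.94) in T29I cells, 6.26-fold lower. Tarbp2 (ENSMUSG00000023051, chromosome 15, 102518192 to 102523676, + strand) was at 66.7 TPM (63.4 to 70.0) in WT cells and 103 TPM (99.4 to 107) in T29I cells, 1.55-fold higher. The shift-corrected log2 ratios were -1.46 for Dicer1 and 1.52 for Tarbp2. Tarbp2 passed from the fifth most abundant of the 10 genes to the most abundant, and its ratio to Dicer1 from 2.98 (2.79 to 3.19) to 28.9 (26.0 to 32.1). Prkra, which encodes PACT, the other double-stranded RNA-binding partner of Dicer, was at 16.7 and 9.40 TPM, a shift-corrected log2 ratio of 0.13. Tarbp2 was 3.99 times as abundant as Prkra in WT cells (3.41 to 4.69) and 11.0 times in T29I cells (9.16 to 13.2). The longest coding transcripts are 9851 bases for Dicer1, 1523 for Tarbp2 and 1614 for Prkra, with a GC content of 47.3%, 57.5% and 47.6%. With these lengths the adjusted log2 ratios were 0.36 for Dicer1, 0.084 for Tarbp2 and -0.022 for Prkra. Dicer1 was above 0 under the other 2 adjustments too, at 0.30 with the longest transcript of any kind and 0.31 with merged exons, where Tarbp2 was at 0.93 and 1.18.

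Of the 10 genes, the 2 Argonautes had the most negative shift-corrected ratios. Ago2 (ENSMUSG00000036698, chromosome 15, 73095844 to 73184935, - strand), the Argonaute known to cleave its targets, was at 68.6 TPM (66.7 to 70.6) in WT cells and 6.20 TPM (5.70 to 6.72) in T29I cells, 11.1-fold lower. Ago1 (ENSMUSG00000041530, chromosome 4, 126435012 to 126468583, - strand) was at 32.3 TPM (30.6 to 34.1) in WT cells and 3.17 TPM (2.71 to 3.68) in T29I cells, 10.2-fold lower. Their shift-corrected log2 ratios were -2.38 and -2.10.

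As TPM, the proportion of the 2 Argonautes differed little, with overlapping counting intervals. Ago2 was 2.12 times as abundant as Ago1 in WT cells (2.00 to 2.26) and 1.96 times in T29I cells (1.64 to 2.33). Their longest coding transcripts are 13800 bases for Ago2 and 7227 for Ago1. After adjustment for length and GC content the log2 ratios lay apart, at -0.037 for Ago2 and -1.0 for Ago1. With merged exon length they were -0.95 and -1.50. Ago2 made up 64.5% of the summed TPM of Ago1 to Ago4 in WT cells and 64.7% in T29I cells, while the sum itself was 106 and 9.58 TPM. The other paralogs were low in both, with Ago3 at 5.31 and 0.174 TPM and Ago4 at 0.166 and 0.0436 TPM. The exons of Ago2 overlap those of Chrac1 on the opposite strand by 219 bases, and Chrac1 was at 18.7 and 9.07 TPM.

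**Figure D2:**
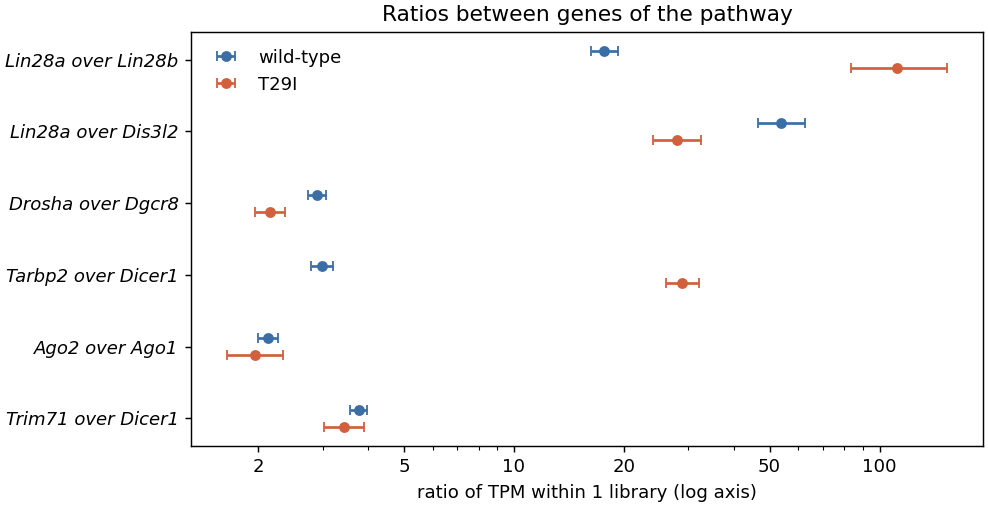
Ratio of TPM between 2 genes within the same library, on a log axis, for the wild-type (blue) and T29I (orange) libraries with 95% counting intervals. Tarbp2 over Dicer1 moves from 2.98 to 28.9 and Lin28a over Lin28b from 17.7 to 112, while Ago2 over Ago1 and Trim71 over Dicer1 have overlapping intervals. The ratios are not adjusted for transcript length and GC content.

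The order of the levels was partly kept, with Spearman's rho of 0.79 between the 2 libraries over the 10 genes. In the wild-type library it ran Lin28a, Drosha, Trim71, Ago2, Tarbp2, Dgcr8, Ago1, Dicer1, Lin28b and Dis3l2, and the counting intervals of the neighbours Ago2 and Tarbp2 overlap. In the T29I library it ran Tarbp2, Lin28a, Drosha, Dgcr8, Trim71, Ago2, Dicer1, Ago1, Dis3l2 and Lin28b. There the intervals of Dgcr8 and Trim71 overlap, as do those of Dicer1, Ago1 and Dis3l2. Both orders also depend on the length taken for each gene, which these intervals do not cover. The 3 named protein-coding genes nearest to Lin28a in Euclidean distance over the 2 log2(TPM + 1) values were Ganab at 220 and 85.7 TPM, Pnp at 227 and 86.2 TPM and Fam60a at 224 and 90.8 TPM, at distances of 0.033, 0.049 and 0.053. This likeness covers 2 libraries only.

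Transcript length moved with the ratios of these genes. Of the 10 genes, 5 have a longest coding transcript of at least 4778 bases, the range of the longest 20% of 9086 protein-coding genes, and those longest genes had a median shift-corrected log2 ratio of -1.17. The shortest 20%, of up to 1640 bases, had a median of 1.09, and Tarbp2 is the only member in that range. Over the 10 genes Spearman's rho between length and log2 ratio was -0.89, against -0.53 over the 9086 genes; all points share the same 2 libraries, and the values are descriptions. The 5 long genes, Ago2 at 13800, Dicer1 at 9851, Trim71 at 9332, Ago1 at 7227 and Lin28b at 5402 bases, are the 5 with the lowest ratios.

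**Figure D3:**
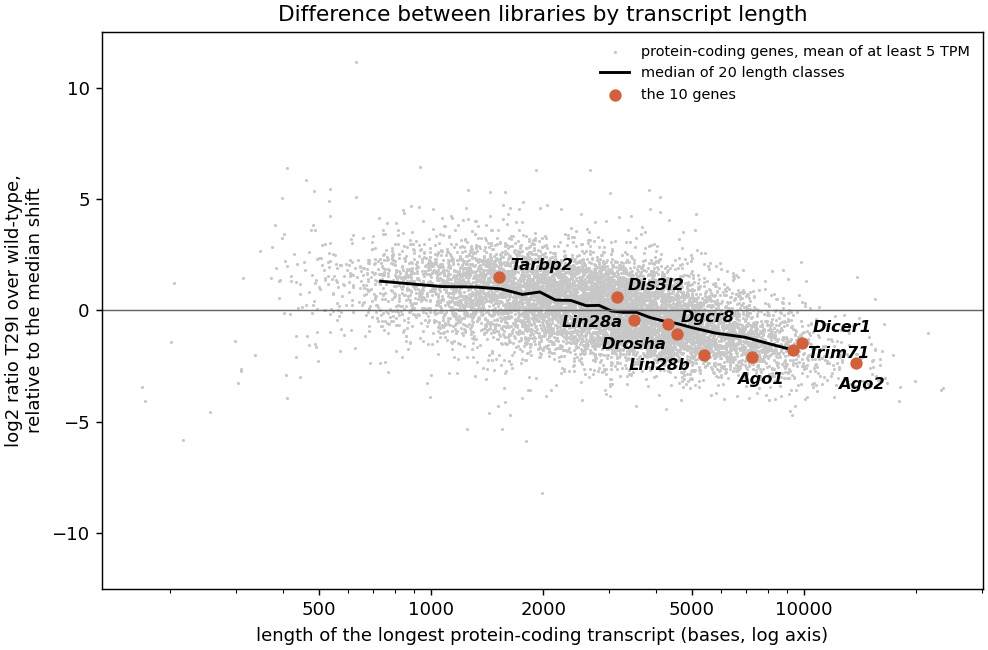
Shift-corrected log2 ratio of T29I over wild-type (vertical axis) against the length of the longest protein-coding transcript in bases (log axis), for protein-coding genes whose mean TPM reached 5 (grey), the median of 20 length classes (line) and the 10 genes (orange). The 10 genes run from Tarbp2 at 1.52 on the left to Ago2 at -2.38 on the right, with Lin28b, Ago1 and Drosha below the line.

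The trend with length and GC content over those 9086 genes was then removed, using the longest coding transcript, a choice made after seeing the data. By these adjusted ratios 1 of the 10 genes was still lower by 2-fold or more and 0 were higher, where the background was 13.0% and 17.5%. That gene was Ago1, whose adjusted log2 ratio of -1.0 lay just past the threshold. Lin28b was at -0.75, Drosha at -0.72, Trim71 at -0.51 and Lin28a at -0.22. The adjusted ratios start from TPM + 1, which understates the difference of a gene as low as Lin28b. With 0.1 added in place of 1, the shift-corrected log2 ratio of Lin28b was -2.89, against -2.02. No adjustment was run with another added value. Ago2 was at -0.037 and Dgcr8 at -0.0063, close to the fitted value for genes of their length and GC content. Tarbp2 was at 0.084, Dis3l2 at 0.49 and Dicer1 at 0.36, the last on the other side of 0 from its shift-corrected value. A real change that tracks length or GC content would be removed with the trend. The adjusted value depends on which length is taken for a gene. With the merged length of all exons Ago2 was at -0.95 and Trim71 at -1.26, and 2 of the 10 genes were lower and 2 higher by 2-fold or more, against 16.6% and 18.0% of all genes. With the longest transcript of any kind 1 was lower and 1 higher, against 15.5% and 17.6%. Which transcript ends were used in these cells was not tested.

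**Figure D4:**
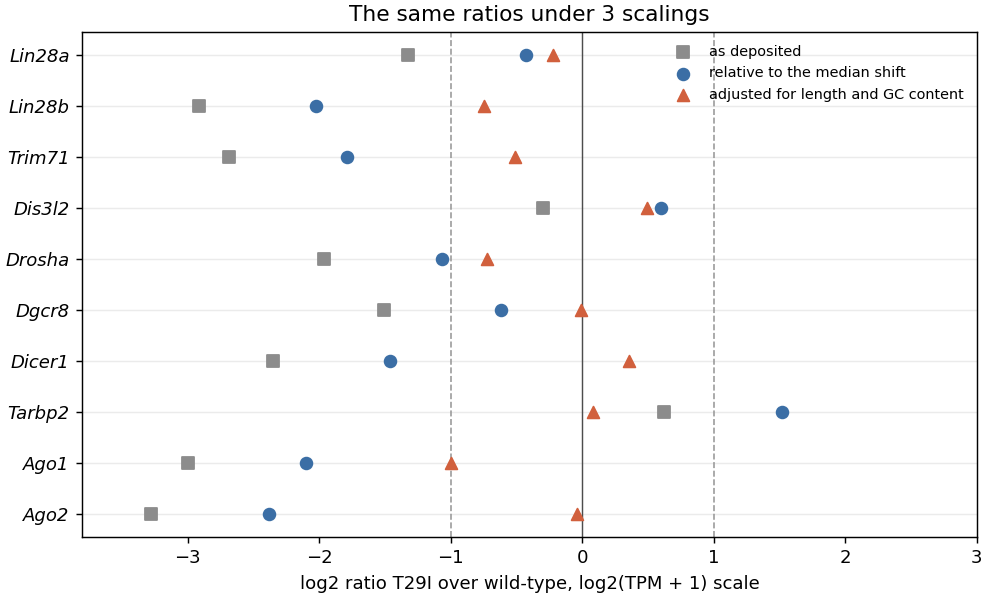
Log2 ratio (T29I over WT, from TPM + 1) for each of the 10 genes, as deposited (grey squares), shift-corrected (blue circles) and adjusted for the length and GC content of the longest coding transcript (orange triangles); dashed lines mark 2-fold. The adjusted values lie between -1.0 and 0.49, a narrower range than the -2.38 to 1.52 of the shift-corrected values.

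The wider pathway was described with lists of genes that do not include the 10, and their shift-corrected counts stand against the 22.2% lower and 26.0% higher of all genes, and their adjusted counts against 13.0% and 17.5%. In the list of other biogenesis factors, 4 of 13 genes were lower by 2-fold or more after shift correction and 0 higher, with a median of -0.48. The lowest was Dhx9, an RNA helicase, at 269 and 14.2 TPM, and its adjusted log2 ratio of -2.34 was below that of each of the 10 genes. The others were the Microprocessor-associated helicases Ddx5 at 586 and 117 TPM and Ddx17 at 317 and 69.0 TPM, and Ncbp2, a cap-binding subunit, at 122 and 24.5 TPM; Ddx5, Ddx17 and Ncbp2 were chosen after their values were seen. Xpo5, the exporter of precursor hairpins, was at 137 and 38.9 TPM, its shift-corrected log2 ratio being -0.90. Ran, the GTPase that Xpo5 works with, was the highest at 1138 and 1038 TPM, and Hnrnpa1 the most abundant at 2548 and 1036 TPM. Ran and Hnrnpa1 have near-identical pseudogene copies, so their values are uncertain. After adjustment 3 of the 13 were lower and 0 higher by that size, against 13.0% and 17.5% of all genes. The 3 were Dhx9, Ncbp2 at -1.12 and Srrt at -1.04, while Ddx5 was at -0.59 and Ddx17 at -0.70. Srrt, whose shift-corrected log2 ratio was -0.48, was chosen after its values were seen.

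The list of silencing complex genes holds the Argonautes Ago3 and Ago4 and genes that act downstream of Argonaute. In it 10 of the 15 members that passed the filter were lower by 2-fold or more after shift correction and 0 higher. Ago3 was 1 of the 10, and the median of the list was -1.53. Ago4 was the 1 member of 16 that did not pass. Dcp2, the decapping enzyme, was the lowest at 78.2 and 3.01 TPM. Tnrc6a, a GW182 protein that Argonautes bind to recruit deadenylases, was at 41.5 and 2.31 TPM, and its adjusted log2 ratio was -1.27. Snd1, a nuclease-domain protein, was the highest at 60.5 and 54.7 TPM, and Pabpc1, the poly(A)-binding protein, the most abundant at 1021 and 484 TPM. After adjustment 3 of the 15 were lower and 2 higher by that size, near the shares of all genes, 13.0% and 17.5%. The 2 were Ago3 at 1.26 and Snd1 at 1.14, and both had a lower TPM in T29I cells. Ago3 was 30.6-fold lower as TPM, on an estimated 457 and 19 reads. Its mean of 2.74 TPM lay below the 5 TPM required of the fitted genes, and its ratio comes from TPM + 1, so its adjusted value is uncertain.

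The list of tailing and decay enzymes holds nucleotidyl transferases, exonucleases that work from the 3' end, as Dis3l2 does, and the 5'-to-3' exonucleases Xrn1 and Xrn2. In it 6 of 10 genes were lower by 2-fold or more after shift correction and 0 higher, with a median of -1.34. Xrn1 at -2.06 and Xrn2 at -1.24 were 2 of the 6, and their adjusted log2 ratios were 0.020 and -0.56. Xrn1 was named after its value was seen. The uridylyl transferases that tail Lin28a-bound let-7 precursors were both low in T29I cells. Zcchc11 (TUT4) was at 24.0 and 1.24 TPM and Zcchc6 (TUT7) at 17.2 and 0.845 TPM. Their adjusted log2 ratios were -1.25 and -1.27, and -1.42 and -0.76 with merged exon length. Parn, a poly(A) ribonuclease, was the highest at 46.5 and 36.0 TPM and Xrn2, which acts in the nucleus, the most abundant at 173 and 38.4 TPM. After adjustment 3 of these 10 were lower and 0 higher by that size, beside 13.0% and 17.5% of all genes.

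Of 20 known let-7 targets, 6 were lower and 3 higher by 2-fold or more after shift correction, with a median of -0.45. After adjustment the counts were 2 and 3 and the median -0.054. The shares of all genes were 22.2% and 26.0% before adjustment and 13.0% and 17.5% after it, so the targets are not set apart by these counts. Ccnd2, a D-type cyclin, was the lowest at 27.8 and 1.73 TPM. Hmga1, a chromatin architectural protein, was the highest and the most abundant at 1073 and 4266 TPM, and pseudogene copies make its value uncertain too. The other 2 that were higher were Hras at 45.3 and 123 TPM and Cdc34 at 425 and 1347 TPM. After adjustment Cdc34 was at -0.013, Hras at 1.74 and Hmga1 at 1.06. Igf2bp1, lower as TPM at 144 and 78.3, was the other target higher by 2-fold or more after adjustment, at 1.35. Hmga2, a target with many let-7 sites, was at 5.15 and 2.19 TPM. Hras, Cdc34, Igf2bp1 and Hmga2 were chosen after their values were seen.

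**Figure D5:**
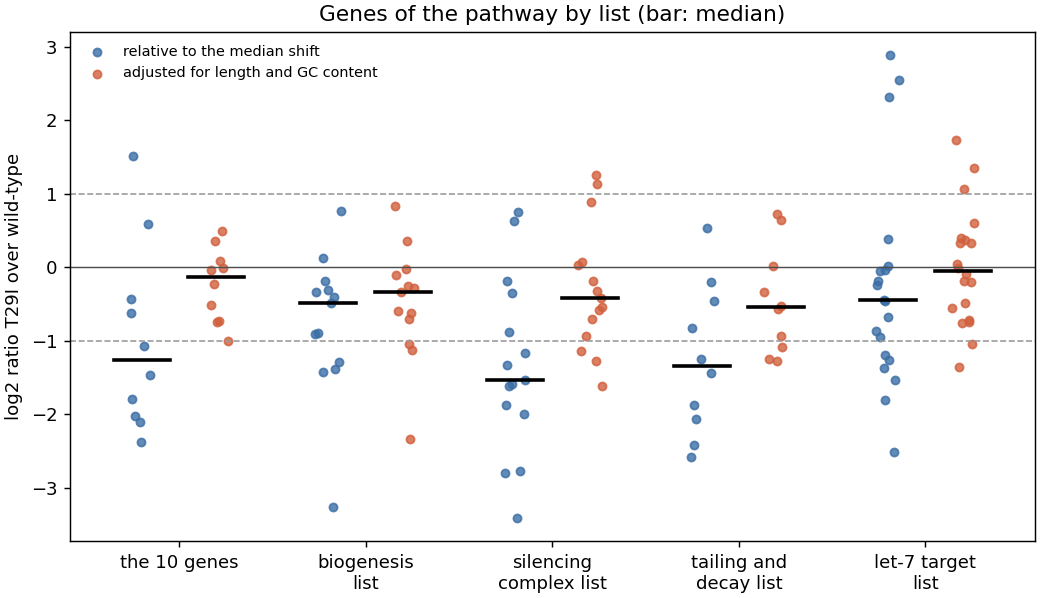
Log2 ratio of T29I over wild-type for the 10 genes and the 4 lists, shift-corrected (blue) and adjusted for length and GC content (orange); each point is a gene that passed the filter, black bars are medians and dashed lines mark 2-fold. The shift-corrected medians are -1.26, -0.48, -1.53, -1.34 and -0.45 from left to right, and each adjusted median lies closer to 0.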

How the data were processed

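The data are 1 table that the authors deposited, with symbols, Ensembl identifiers and 1 value column per library. Each deposited column summed to 1000000, so the values are taken as TPM; the aligner, counting tool, build and strand setting are not stated in the labels or the file. GENCODE M21 (GRCm38) held 51633 of the 51826 identifiers and gave positions, lengths and GC content. TPM multiplied by merged exon length fell within 0.05 of a whole number of reads for 88.9% and 87.5% of genes with up to 20 reads, which gave the estimated reads and exact Poisson or Clopper-Pearson 95% counting intervals. PCR copies are not independent molecules, so these cover counting error only.

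The size rule was a log2 ratio of at least 1 either way on log2(TPM + 1), minus the median over genes whose mean TPM reached 5 (shift-corrected), and was applied to genes whose mean TPM reached 1. This scale understates differences of low genes. The adjusted ratio is the residual from a quadratic surface in log2 length and GC content, with their product, over protein-coding genes whose mean TPM reached 5; the surface accounted for 47.2% of their variance. All 10 members were named, and of each list the highest, lowest and most abundant gene and partners of members. Members and lists were chosen with earlier results of these data known. Scripts (Python 3.11.15, scipy 1.17.1) were tested on simulated data.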

Additional observations from a re-analysis of the deposited data

How the results depend on the processing

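No paired analysis was possible because each group has 1 library, and for the same reason no library could be left out. Of the 10 genes, 6 were lower by 2-fold or more after shift correction; this count was 1 after adjustment for longest-transcript length and GC content, 2 with merged exon length and 1 with the longest coding transcript, a version chosen after seeing the data. The count of higher genes was 1, and it was 0 as deposited, 0 after rescaling without the 20 most abundant genes, 2 with merged exon length and 0 with the coding transcript. The median of the 10 genes was -1.26 shift-corrected and -2.16 as deposited. Dicer1 changed sign under the 3 adjustments, to 0.30, 0.31 and 0.36. Ago1 passed the size rule under all 9 alternatives, from -3.0 to -1.0. Lin28b, Dicer1 and Tarbp2 each passed it in the same direction as shift-corrected under 5 of 9. Of all genes, 22.2% were lower after shift correction, 45.7% as deposited and 42.5% after rescaling. The share was 15.5%, 16.6% and 13.0% under the adjustments for longest transcript, merged exons and coding transcript. The count of lower biogenesis genes was 4 of 13, and it was 11 as deposited, 10 after rescaling and 2 with merged exon length. The count of lower silencing genes was 10 of 15, and 4, 2 and 3 under the adjustments for longest transcript, merged exons and coding transcript. The count of lower tailing and decay genes was 6 of 10, and 2 with merged exons and 3 with the coding transcript. The count of lower let-7 targets was 6 of 20, and it was 13 as deposited, 11 after rescaling, and 1, 2 and 2 under the 3 adjustments. Changing the pseudocount or the filter kept each of these counts within 1.5 times. With a pseudocount of 5 the count of lower genes among the 10 was 4, with Lin28b at -0.87 and Dicer1 at -0.95. The share of all genes was not counted for the other pseudocounts and filters. Longest annotated transcripts of Tarbp2 and Dis3l2 are non-coding, and their adjusted values were 0.93 and 1.77 with those lengths, against 0.084 and 0.49 with the coding transcript. Depth limits Lin28b most, with 47 estimated reads in T29I cells.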

Other observations

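Mir17hg, the host transcript of the miR-17 to miR-92 cluster and a Microprocessor substrate, was at 39.4 TPM in WT cells and 2.74 TPM in T29I cells, from an estimated 723 and 64 reads. Its shift-corrected log2 ratio was -2.54, and it was -1.75 after adjustment for the length and GC content of its longest transcript. It was chosen after its values were seen. All 2202 rows annotated as microRNA genes were listed at 0 in both libraries, including the 9 rows of the miR-290 to miR-295 cluster and the 4 of the miR-302 cluster, so no hairpin row can be compared.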
